A study of Mus musculus with 6 samples.

Results

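Transcripts of the proteasome, the protease that breaks down most ubiquitin-tagged proteins, were compared between gastrocnemius (calf) muscle of TAK1 knockout mice and of floxed control mice. The members were all genes on the arrays whose symbol begins with Psm, one of the letters a to g and a digit, read from probe sets that the platform's annotation ties to a single symbol. Each gene was represented by its probe set with the highest mean over the 6 arrays. This gave 49 of the 22180 genes measured, of which 47 encode subunits, activators, inhibitors or assembly chaperones of the proteasome. The other 2, Psmc3ip (a meiotic recombination factor) and Psme3ip1 (a partner of the activator Psme3), are not subunits. Psma4 was left out because its probe sets also carry the symbol of another gene.

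The 3 knockout mice lacked TAK1, the kinase encoded by Map3k7, in skeletal muscle, and were sampled 3 weeks after the deletion. The 3 control mice were littermates that carried the floxed TAK1 gene without the deletion, so both groups share the floxed allele. The sources used here do not name the promoter that drove the deletion, nor the age or sex of the mice. RNA of each mouse was measured on 1 Affymetrix expression array, and the values are log2 levels.

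The proteasome has a barrel-shaped core particle of alpha and beta rings, in which the subunits Psmb5, Psmb6 and Psmb7 cut proteins, and a regulatory particle that recognises, unfolds and feeds in substrates. The base of the regulatory particle holds the ATPases Psmc1 to Psmc6, and its lid holds the deubiquitinase Psmd14. Interferon replaces the catalytic subunits with Psmb8, Psmb9 and Psmb10, which make up the immunoproteasome, and induces the activator subunits Psme1 and Psme2. In skeletal muscle the ubiquitin-proteasome system degrades myofibrillar proteins, and its subunit transcripts are known to go up in several forms of wasting. TAK1 is a kinase downstream of cytokine receptors that feeds NF-kB and MAP kinase pathways.

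No proteasome gene passed the test between knockout and control muscle (limma, adjusted p of 0.05 over all 22180 genes), where 21 genes did (0.0947%). The smallest adjusted p among the members was 0.44. At an unadjusted p under 0.05, 1 of 49 members passed (Psmd10), against 8.04% of all genes. The mean was lower in knockout muscle for 37 of 49 members, against 50.1% of all genes, with a median log2 fold change of -0.04 over the members and -0.0003 over all genes. That count turned on 1 array. Without control 1 the mean was lower in knockout muscle for 22 of 49 members, against 49.8% of all genes, and the median was 0.02.

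Control 1 stood apart from all other arrays in these genes. It was the highest of the 6 arrays for 28 of 49 members (57.1%), against 19.5% of all genes. The highest array was knockout 1 for 3 members (18.7% of all genes), knockout 2 for 1 (15.3%), knockout 3 for 3 (15.8%), control 2 for 5 (15.7%) and control 3 for 9 (14.9%). Its level was above the mean of controls 2 and 3 for 39 of 49 members, by a median of 0.22 on the log2 scale, while the same median over all genes was 0.01. On the same array, macrophage markers lay 0.36 above controls 2 and 3 (median of 10 genes), and markers of fibro-adipogenic cells (7 genes), tendon (8), adipocytes (7) and endothelium (8) differed from them by medians of -0.62, -0.53, -0.48 and -0.24. Tendon markers were also lower in knockout than in control muscle in 8 of 8 genes (median log2 fold change -0.80). Of these, 0 passed the test (limma, smallest adjusted p = 0.425). Knockout values lay wholly below control values in 1 of the 8, Fmod, against 6.65% of all genes. Median deviations of the tendon markers from the gene means were 0.08, -0.35 and -1.02 in knockout mice 1, 2 and 3, against -0.03, 0.63 and 0.40 in control mice. The part of these cell types in the proteasome levels was not tested. In RNA of whole muscle, fewer cells of a type and less RNA per cell cannot be told apart.

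The 10 muscle fibre markers all lay above background, taken as the 95th percentile of olfactory and vomeronasal receptor genes (5.85 on the log2 scale), and averaged 13.5 to 13.6 on each array. The 8 lymphocyte markers measured all lay below it. Map3k7, the targeted gene, had log2 levels of 8.20, 8.28 and 8.17 in knockout muscle, against 8.47, 8.32 and 8.42 in control muscle. The groups did not overlap, with a log2 fold change of -0.19 that did not pass the test (limma, adjusted p = 0.686). The sources used here do not name the exons removed, and the part of cells other than fibres in this signal was not tested.

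Of the 49 members, 44 lay above background. The 5 below it were Psmg4 and Psmb9, the core subunit Psma5, and the forms restricted to other tissues, Psma8 of testis and Psmb11 of thymus. Differences of dim probe sets can be compressed, so these 5 carry less information. Levels of different genes were not compared, since each probe set has its own binding.

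**Figure D1:**
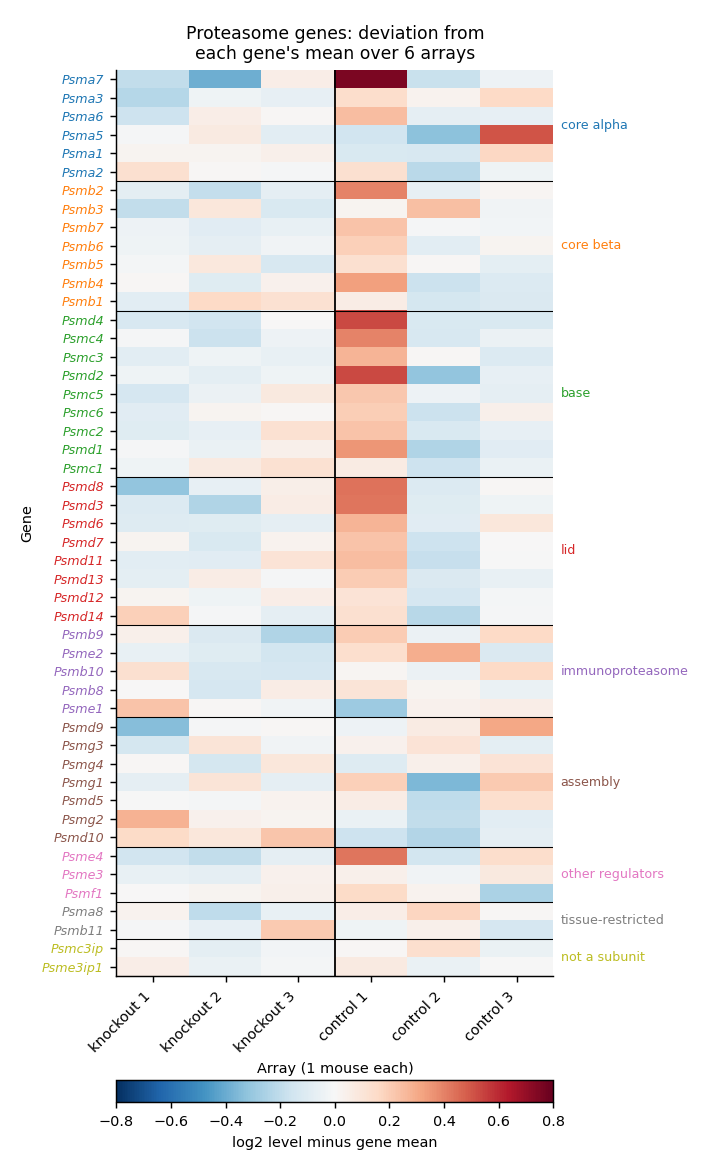
Log2 level of each of the 49 genes (rows, coloured by class) on each of the 6 arrays (columns, 1 mouse each), minus that gene's mean over the 6 arrays. Red cells of the core, base and lid genes gather in the control 1 column, which is the highest array for 28 of the 49 genes.

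Promoters are shown for the members with the largest difference in each direction among those with a promoter sequence, Psma7 and Psmd10, and for Psmb9, the immunoproteasome catalytic subunit with the largest difference. Of the 49 members, 41 had a promoter in the RefSeq table (GRCm38.p6), and Psma8, Psmb1, Psmb2, Psmb7, Psmc3, Psmd3, Psmd7 and Psmg2 had none there. Each line gives the 250 bases before the gene's start, 5′ to 3′ on the gene's own strand. Capitals mark matches on either strand to 4 motifs: the core of the antioxidant response element (TGACNNNGC or TGAGNNNGC), which NRF1 and NRF2 bind, the CCAAT box (CCAAT), the gamma-interferon activated site (TTCNNNGAA) and the NF-kB consensus. No matches overlap.
Psma7, chr2:180042465-180042714, minus strand: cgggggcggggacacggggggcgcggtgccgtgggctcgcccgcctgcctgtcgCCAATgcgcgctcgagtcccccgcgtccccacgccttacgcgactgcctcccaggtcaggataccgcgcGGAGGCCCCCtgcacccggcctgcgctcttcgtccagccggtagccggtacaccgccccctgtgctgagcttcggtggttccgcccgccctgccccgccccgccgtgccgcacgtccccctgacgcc
Psmd10, chrX:140956712-140956961, minus strand: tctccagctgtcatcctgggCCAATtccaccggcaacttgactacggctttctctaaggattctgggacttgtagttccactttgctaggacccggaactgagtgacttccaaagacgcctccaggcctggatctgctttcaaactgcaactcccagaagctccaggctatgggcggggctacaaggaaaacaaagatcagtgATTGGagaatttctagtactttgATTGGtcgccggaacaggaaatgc
Psmb9, chr17:34187331-34187580, minus strand: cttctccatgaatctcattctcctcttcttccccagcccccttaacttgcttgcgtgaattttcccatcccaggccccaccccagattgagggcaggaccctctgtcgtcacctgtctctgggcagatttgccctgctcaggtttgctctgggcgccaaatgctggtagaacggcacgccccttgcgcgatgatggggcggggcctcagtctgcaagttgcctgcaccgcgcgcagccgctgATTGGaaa

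The Psma7 stretch holds a CCAAT box 192 to 196 bases before the start and an NF-kB match 118 to 127 bases before it. Psmd10 holds 3 CCAAT matches, and Psmb9 holds 1, which begins 8 bases before the start. A gene was counted if any of its promoters held a match. Over the members with a promoter, the antioxidant element core was present in 12 of 41 (29.3%), against 25.7% of all 27025 genes with a promoter. CCAAT was present in 16 of 41 (39.0%), against 37.5%. The NF-kB consensus was present in 6 of 41 (14.6%), against 8.23%, and the gamma-interferon site in 2 of 41 (4.88%), Psmb8 and Psmg1, against 8.13%. A match is a run of letters and not a bound site.

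Alpha ring subunits, which gate the entry to the core, had a median log2 fold change of -0.04 over 6 genes, 4 of them lower in knockout muscle. Psma7 had the largest difference of all members. Its log2 levels were 9.15, 8.96 and 9.40 in knockout muscle, against 10.10, 9.17 and 9.30 in control muscle. The groups overlapped, and control 1 lay 0.86 above the mean of controls 2 and 3, the widest such gap among the members. Psma7 was 1.28-fold lower in knockout muscle (log2 fold change -0.35, SE 0.23, 95% interval -0.89 to 0.18; limma, adjusted p = 0.782), and the log2 fold change was -0.07 without control 1.

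Psma3 had levels of 10.81, 11.004 and 10.97 in knockout muscle, against 11.18, 11.07 and 11.20 in control muscle. The knockout mice were the 3 lowest. The log2 fold change was -0.22 (SE 0.10; limma, adjusted p = 0.635), and -0.20 without control 1. Of the other alpha subunits, Psma6 differed by -0.07, Psma1 by 0.06 and Psma2 by 0.08, and without control 1 by 0.033, 0.0089 and 0.17. Psma1 had the smallest spread between knockout mice of these genes, with 9.65, 9.66 and 9.68. Psma5 had a log2 fold change of -0.01 (-0.094 without control 1), with levels of 5.77, 5.85 and 5.69 in knockout muscle against 5.62, 5.45 and 6.27 in control muscle, all near background. A second, dimmer probe set of Psma5 had means of 5.51 in knockout and 5.66 in control muscle.

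Beta ring subunits had a median log2 fold change of -0.09 over 7 genes, 6 of them lower in knockout muscle, and -0.01 without control 1. Psmb5, the chymotrypsin-like subunit and the main target of proteasome inhibitor drugs, had levels of 9.22, 9.32 and 9.11 in knockout muscle, against 9.36, 9.24 and 9.15 in control muscle. The groups overlapped (log2 fold change -0.04, 95% interval -0.28 to 0.20; limma, adjusted p = 0.965; 0.017 without control 1). Psmb6, the caspase-like subunit, had levels of 9.15, 9.11 and 9.16 in knockout muscle, against 9.38, 9.10 and 9.20 in control muscle. The groups overlapped, with control 2 the lowest array and control 1 the highest (log2 fold change -0.09, 95% interval -0.32 to 0.15; adjusted p = 0.897 by limma), and the log2 fold change was -0.011 without control 1.

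Psmb7, the trypsin-like subunit, had levels of 11.05, 10.99 and 11.02 in knockout muscle, against 11.32, 11.08 and 11.06 in control muscle. The groups did not overlap, but the highest knockout and lowest control values nearly met. Its log2 fold change was -0.13 (95% interval -0.37 to 0.11; limma, adjusted p = 0.83), and -0.05 without control 1. Psmb2, a beta subunit with no catalytic site, had levels of 9.14, 9.02 and 9.14 in knockout muscle, against 9.61, 9.15 and 9.23 in control muscle. Here too the groups did not overlap, and the log2 fold change of -0.23 (limma, adjusted p = 0.742) was -0.09 without control 1. The other non-catalytic beta subunits, Psmb3, Psmb4 and Psmb1, had log2 fold changes of -0.15, -0.03 and 0.13. Without control 1 that of Psmb4 was 0.12, that of Psmb3 -0.18 and that of Psmb1 0.20.

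Base subunits, the ATPases that unfold substrates with their scaffolds and ubiquitin receptor, had a median log2 fold change of -0.07 over 9 genes, 8 of them lower in knockout muscle. Without control 1, 1 of 9 was lower and the median was 0.05. Control 1 was the highest array for 8 of the 9. Psmd2, a scaffold of the base, had levels of 10.49, 10.44 and 10.49 in knockout muscle, against 11.06, 10.21 and 10.46 in control muscle. The control mice spanned both sides of the knockout mice, so its log2 fold change of -0.10 became 0.14 without control 1. Psmd4, the ubiquitin receptor Rpn10, had levels of 9.30, 9.28 and 9.44 in knockout muscle, against 9.96, 9.31 and 9.31 in control muscle, and log2 fold changes of -0.19 with control 1 and 0.03 without it.

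The other scaffold, Psmd1, had a log2 fold change of -0.01, and of 0.16 without control 1. Among the ATPases, Psmc4 differed by -0.15, Psmc3 by -0.12, Psmc5 by -0.07, Psmc6 by -0.04, Psmc2 by -0.03 and Psmc1 by 0.10. Without control 1 these ATPases differed by 0.015 (Psmc4), -0.0095 (Psmc3), 0.023 (Psmc5), 0.047 (Psmc6), 0.079 (Psmc2) and 0.16 (Psmc1), so that Psmc3 alone stayed below 0. Adjusted p of the 9 base genes lay between 0.855 and 0.994 (limma).

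Lid subunits, which hold the complex that removes ubiquitin chains, had a median log2 fold change of -0.04 over 8 genes, 6 of them lower in knockout muscle. Without control 1, 3 of 8 were lower and the median was 0.07. Psmd8, a lid subunit also called Rpn12, had levels of 10.61, 10.86 and 10.98 in knockout muscle, against 11.37, 10.82 and 10.94 in control muscle. The groups overlapped, with control 1 the highest array (log2 fold change -0.22, SE 0.16; limma, adjusted p = 0.803; -0.06 without control 1). Psmd3 and Psmd6 had log2 fold changes of -0.20 and -0.18, and of -0.033 and -0.094 without control 1. The structural subunits Psmd7, Psmd11, Psmd13 and Psmd12 lay between -0.04 and 0.03, and the deubiquitinase Psmd14 differed by 0.07. Without control 1 they lay between 0.060 (Psmd7) and 0.088 (Psmd12), and Psmd14 differed by 0.15.

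**Figure D2:**
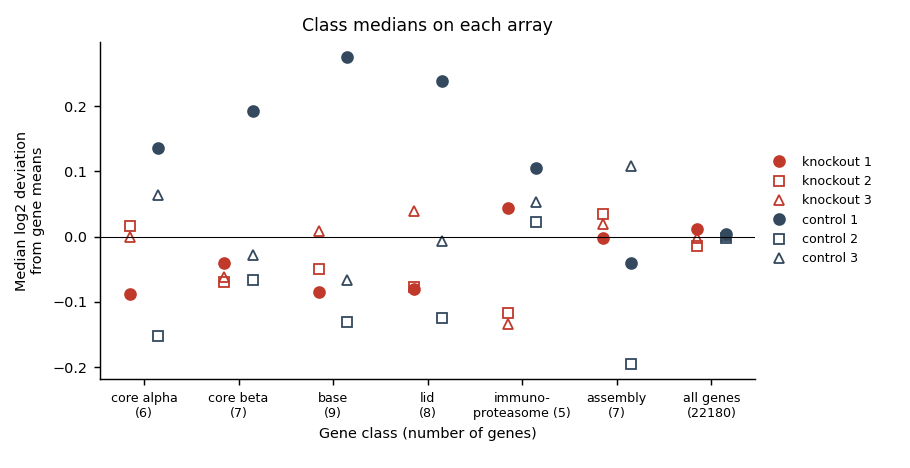
Median over each class of the log2 level minus each gene's mean over the 6 arrays (vertical axis), for 6 classes and all genes (horizontal axis), with 1 point per array, red for knockout and dark blue for control, a filled circle for mouse 1, a square for mouse 2 and a triangle for mouse 3. Control 1 is highest for core alpha (0.14), core beta (0.19), base (0.27), lid (0.24) and immunoproteasome (0.10) but lies at -0.04 for assembly.

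The spread between mice differed between the groups in the regulatory particle. Control mice had the larger SD for all 9 base genes and all 8 lid genes, and for 35 of 49 members, against 50.6% of all genes. The median SD over the 17 base and lid genes was 0.0850 in knockout muscle and 0.196 in control muscle, and 0.0843 between controls 2 and 3 alone. Over all genes the same medians were 0.131, 0.133 and 0.105. The median SD of 2 arrays tends to be lower than that of 3, so the value for controls 2 and 3 is not like for like.

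Immunoproteasome genes had a median log2 fold change of -0.09 over 5 genes, 4 of them lower in knockout muscle, and -0.10 without control 1. Psmb8, which takes the place of Psmb5, had levels of 6.44, 6.30 and 6.49 in knockout muscle, against 6.54, 6.46 and 6.38 in control muscle. The groups overlapped (log2 fold change -0.05, 95% interval -0.28 to 0.18; limma, adjusted p = 0.95; -0.011 without control 1). Psmb10, which takes the place of Psmb7, had levels of 7.60, 7.35 and 7.34 in knockout muscle, against 7.50, 7.43 and 7.64 in control muscle. These groups overlapped as well (log2 fold change -0.09, 95% interval -0.35 to 0.17; limma, adjusted p = 0.902).

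Psmb9, which takes the place of Psmb6 and whose promoter is shown above, had levels of 5.83, 5.67 and 5.54 in knockout muscle, against 5.99, 5.74 and 5.95 in control muscle. The groups overlapped near background (log2 fold change -0.21, 95% interval -0.48 to 0.05; limma, adjusted p = 0.72). The activator subunits, which form a ring that opens the core, differed in sign. Psme2 had levels of 7.73, 7.69 and 7.64 in knockout muscle, against 7.92, 8.08 and 7.67 in control muscle (log2 fold change -0.21; limma, adjusted p = 0.746). Psme1 had levels of 9.31, 9.09 and 9.06 in knockout muscle, against 8.80, 9.12 and 9.14 in control muscle. Control 1 was the lowest array for Psme1, and its log2 fold change was 0.14 with that array and 0.03 without it (limma, adjusted p = 0.855 and 0.991).

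Macrophages carry immunoproteasome subunits, and their 10 markers, all above background, had deviations from the gene means (median over markers) of 0.23, -0.10 and -0.07 in knockout mice 1, 2 and 3, against 0.23, -0.09 and -0.18 in control mice. The same medians for the immunoproteasome genes were 0.04, -0.12 and -0.13 in knockout mice, against 0.10, 0.02 and 0.05 in control mice. Mouse 1 was the highest of its group in both lists. The part of macrophages in the immunoproteasome values was not tested.

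Assembly chaperones, which help build the particles and then leave, had a median log2 fold change of -0.03 over 7 genes, 3 of them higher and 4 lower in knockout muscle. Both members whose knockout values all lay above all control values belong to this class. They were 2 of 49 members (4.08%), against 6.74% of all genes. Psmd10, the base chaperone gankyrin, had levels of 7.79, 7.72 and 7.85 in knockout muscle, against 7.47, 7.40 and 7.56 in control muscle. The 2 groups did not overlap. Psmd10 was 1.24-fold higher in knockout muscle (log2 fold change 0.31, SE 0.10, 95% interval 0.09 to 0.53), with an adjusted p of 0.44 by limma, and the log2 fold change stayed between 0.27 and 0.35 without any 1 array.

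Psmg2, which pairs with Psmg1 to start the alpha ring, had levels of 8.99, 8.75 and 8.73 in knockout muscle, against 8.66, 8.52 and 8.63 in control muscle. The groups did not overlap (log2 fold change 0.22, SE 0.11, 95% interval -0.03 to 0.47; limma, adjusted p = 0.671). A second, dim probe set of Psmg2 had means of 5.71 in knockout and 5.65 in control muscle. Its partner Psmg1 had levels of 7.19, 7.36 and 7.19 in knockout muscle, against 7.45, 6.90 and 7.47 in control muscle. The controls of Psmg1 spanned the knockouts (log2 fold change -0.03; limma, adjusted p = 0.987; 0.061 without control 1).

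Psmg3 had levels of 6.40, 6.65 and 6.51 in knockout muscle, against 6.57, 6.65 and 6.47 in control muscle, and Psmg4, its partner in alpha ring assembly, lay below background at 4.56, 4.41 and 4.64 in knockout muscle, against 4.45, 4.59 and 4.66 in control muscle. Neither pair of groups separated (log2 fold changes -0.04 and -0.03, and -0.039 and -0.090 without control 1). Psmd9, a base chaperone like Psmd10, had levels of 7.06, 7.39 and 7.41 in knockout muscle, against 7.36, 7.47 and 7.71 in control muscle. Its difference ran opposite to that of Psmd10 (log2 fold change -0.23, SE 0.14; limma, adjusted p = 0.759), and the groups overlapped. Psmd5, the remaining base chaperone of this set, differed by 0.01, and by 0.035 without control 1.

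**Figure D3:**
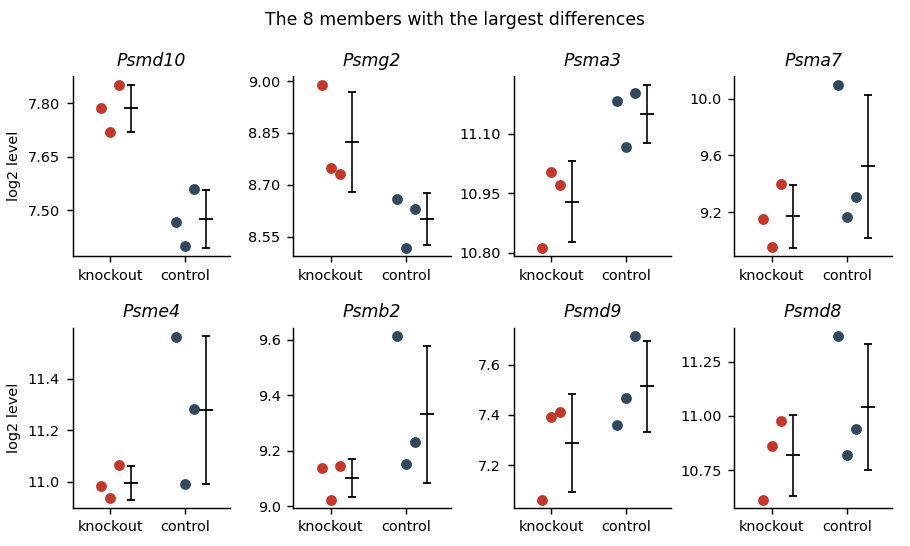
Log2 level (vertical axis, own scale in each panel) on each knockout array (red) and control array (dark blue) for the 8 genes with the largest absolute log2 fold change, with the mean and SD of 3 arrays beside the points. Psmd10 and Psmg2 lie higher, and Psma3 and Psmb2 lower, in knockout muscle without overlap, while control 1 alone holds the top of the Psma7, Psme4 and Psmd8 panels.

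Of the remaining regulators, Psme4, the nuclear activator PA200, had levels of 10.99, 10.94 and 11.07 in knockout muscle, against 11.56, 10.99 and 11.28 in control muscle. The groups overlapped at control 2, and the log2 fold change was -0.28 (SE 0.14, 95% interval -0.61 to 0.05; limma, adjusted p = 0.696), or -0.14 without control 1. Psme3, the nuclear activator PA28 gamma, had levels of 8.23, 8.21 and 8.32 in knockout muscle, against 8.32, 8.26 and 8.36 in control muscle (log2 fold change -0.06; limma, adjusted p = 0.924). Psmf1, known as PI31 and first described as an inhibitor of the core, differed by 0.05, and by 0.14 without control 1.

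Psma8 and Psmb11, both below background, differed by -0.15 and 0.09. The genes that are no subunits differed little as well, Psmc3ip by -0.06 and Psme3ip1 by -0.01 (0.025 without control 1).

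In all, the knockout and control values did not overlap in 5 of 49 members (10.2%), against 13.4% of all genes. They lay above the controls in 2, Psmd10 and Psmg2, against 6.74% of all genes, and below them in 3, Psma3, Psmb2 and Psmb7, against 6.65%. The share among the members was not above that of all genes in either direction. Without control 1, 7 members lay above and 4 below, against 11.3% and 10.9% of all genes.

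The intervals bound how large a difference the arrays leave room for. No member differed by over 1.5-fold in its mean, against 1.24% of all genes. The 95% interval, not adjusted for the number of genes, lay within 1.5-fold in either direction for 45 of 49 members, against 86.1% of all genes, and within 2-fold for all 49, against 98.2%. The 4 exceptions at 1.5-fold were Psma7, Psmd4, Psmd8 and Psme4, all on the side of lower levels in knockout muscle. The interval of Psma7 reached down to 1.85-fold lower, that of Psme4 to 1.53-fold and that of Psmd8 to 1.51-fold, and that of Psmd4 passed 1.5-fold only just.

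**Figure D4:**
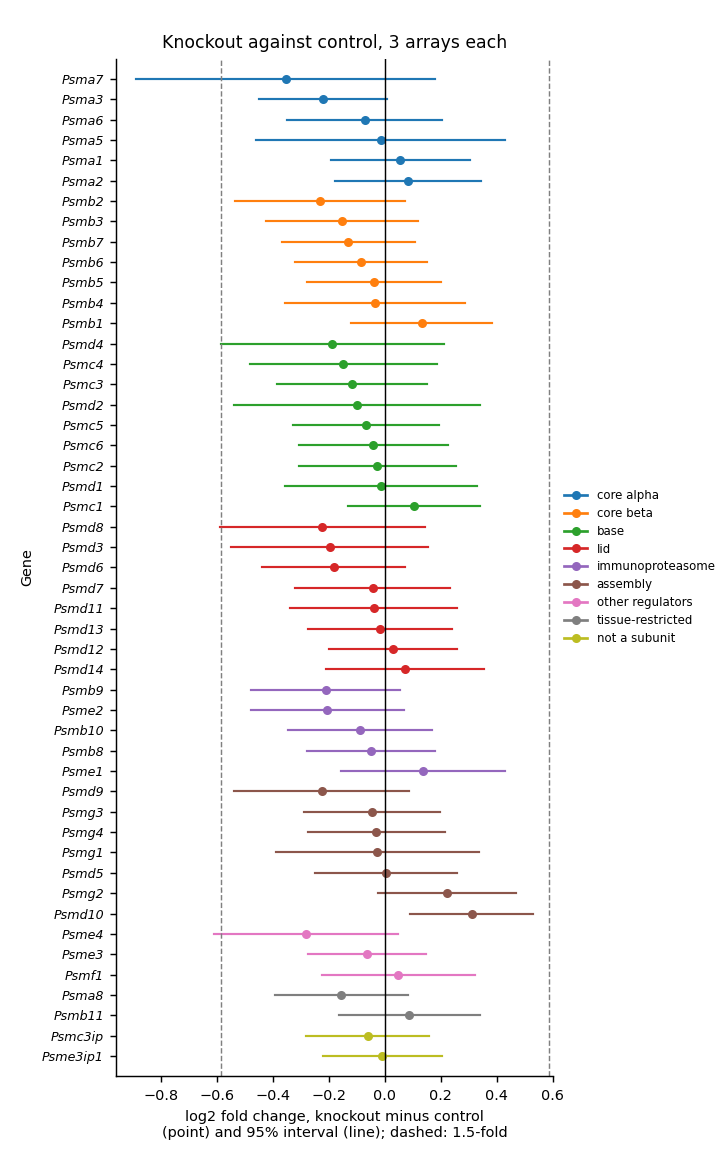
Log2 fold change of knockout over control muscle (points) with its 95% interval from limma (lines) for the 49 genes, coloured by class, 3 arrays a group, with dashed lines at 1.5-fold in each direction. Intervals of 4 genes cross the left dashed line, none crosses the right one, and that of Psmd10 lies wholly above 0.

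**Figure D5:**
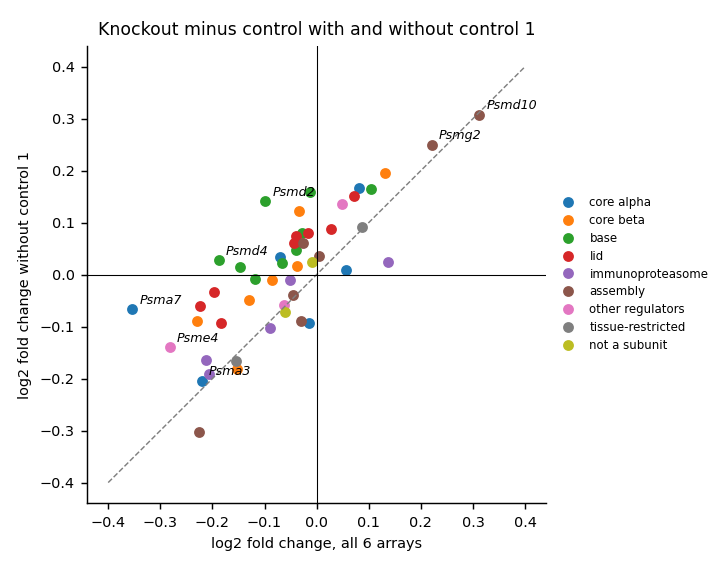
Log2 fold change of each of the 49 genes with all 6 arrays (horizontal axis) against the value without control 1 (vertical axis), coloured by class, with a dashed line of equal values. All 17 base and lid genes lie above the line, Psma7 moves from -0.35 to -0.07, and Psmd10 stays at 0.31.

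Genes that act with these members did not pass the test either. Of 12 other subunits and cofactors measured of 14 listed, 6 were higher and 6 lower in knockout muscle, and the median difference was 0.001 on the log2 scale. The largest differences were in Zfand5, which activates the proteasome in wasting muscle, and Pomp, the chaperone that completes the core, both at 0.18 (limma, adjusted p = 0.748 each). Pomp had levels of 9.76, 9.93 and 9.73 in knockout muscle, against 9.76, 9.53 and 9.58 in control muscle, and the groups overlapped at control 1. Sem1, the small lid subunit that the naming rule does not catch, had levels of 10.22, 10.31 and 10.24 in knockout muscle, against 10.15, 10.10 and 10.13 in control muscle. All its knockout values lay above all control values, by a mean of 0.13 (limma, adjusted p = 0.792). In this list 3 of 12 genes lay wholly above the controls (Sem1, Zfand5 and Fbxo7), against 6.74% of all genes. Ubxn1 alone lay wholly below them, against 6.65% of all genes. The list was chosen with earlier results of these data known, so these counts are a description only. Adrm1, the ubiquitin receptor Rpn13, had no probe set of its own.

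Of 11 regulators of proteasome genes measured of 12 listed, 9 were lower and 2 higher, with a median of -0.09 and 0 that passed. Nfe2l1, which encodes NRF1, the factor that restores proteasome transcripts when the protease is short, had levels of 10.42, 10.60 and 10.45 in knockout muscle, against 10.56, 10.68 and 10.66 in control muscle. The groups overlapped (log2 fold change -0.14; limma, adjusted p = 0.792), and control 1 was the lowest of the 3 controls for this gene while it was the highest for most subunits. The largest differences were in Foxo1, a driver of atrophy genes (-0.29, and -0.19 without control 1; adjusted p = 0.859 by limma), and Stat3 (0.18; adjusted p = 0.716).

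Of 11 genes that deliver ubiquitin conjugates measured of 17 listed, 9 were lower and 2 higher, with a median of -0.05. Rad23b and Ubqln1, shuttles that carry tagged proteins to the base, had the largest differences (-0.25 and -0.17; limma, adjusted p = 0.705 and 0.792), and without control 1 they differed by -0.11 and -0.10. Control 1 lay above the mean of the other controls for 10 of these 11 genes, by a median of 0.21, much as it did for the subunits. Of 10 interferon and antigen processing genes measured of 13 listed, 6 were higher and 4 lower, with a median of 0.04. Their largest differences were in the peptide transporter Tap1 (-0.27) and the class I light chain B2m (-0.20; limma, adjusted p = 0.703 and 0.653).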

How the data were processed

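RNA of gastrocnemius muscle of 6 mice was measured on 1 array each. The deposited values are log2 summaries of 41345 probe sets. The authors worked with oligo, RMA and limma, per the submitters' processing notes, which give no version here. RMA corrects background, gives all arrays 1 intensity distribution and can compress differences of dim transcripts. No scan batch was named in the sources used here, so none was tested.

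Gene names came from the platform annotation at GEO, through the 23521 probe sets with 1 symbol. Symbols of all 49 members matched the RefSeq gene table of GRCm38.p6. The difference, knockout minus control, was tested by lmFit and eBayes (limma 3.58.1, R 4.3.3; two-sided, Benjamini-Hochberg over 22180 genes), with no filter on dim genes; the test was also run on simulated data. The number of arrays limits the precision. Alternatives changed the normalization, probe set choice, dim-gene filter, variance model, replicate block and arrays.

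The members, 5 pathway lists and 8 marker lists were chosen with earlier results of these data known. Per-array values are given for the 8 members with the largest absolute log2 fold change, the 3 with the smallest p, the catalytic pairs, Psme1 to Psme4 and Psmg1 to Psmg4; Psma1, Psma5, Psmd2 and Psmd4 were added after their values were seen. Each pathway list is shown by its 2 largest differences, with Nfe2l1, Pomp and Sem1. Plots used matplotlib 3.10.9.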

Additional observations from a re-analysis of the deposited data

How the results depend on the processing

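No proteasome gene and no gene of the 5 pathway lists passed in any of the alternatives run with limma. Over all genes, 21 passed, against 45 when only genes above background were tested, 53 when only genes above the median level were, 36 with an intensity trend and robust prior, 0 without sharing of variance (where 7.27% of genes had an unadjusted p under 0.05), and 2 to 11 without 1 array. Filtered fits test fewer genes and also estimate the shared variance anew. Among genes above background, 9.22% had an unadjusted p under 0.05 in the main limma fit and 10.9% in the filtered one. The cause of these changes was not tested. Without 1 array, the median log2 fold change of the members ran from -0.11 to 0.02, of core alpha from -0.15 to -0.01, of core beta from -0.13 to -0.01, of base from -0.14 to 0.05, of lid from -0.14 to 0.07, of immunoproteasome from -0.17 (without knockout 1) to -0.049 and of assembly from -0.02 to 0.07. In fits chosen after seeing the data, the count of members with a lower mean in knockout muscle ran from 22 to 41, of members wholly above the controls from 2 to 7 and wholly below from 4 to 11, where 2 and 3 hold with all arrays. The most above came without control 1 (7 of 49, against 11.3% of all genes). The most below came without control 2 (11 of 49, against 13.1%), then knockout 3 (9 of 49, against 11.997%). With fewer arrays values separate more often in all genes too, but each of these member shares was above that of all genes. Not all fits went this way: without knockout 2, 4 of 49 lay below, against 10.1%. The cause was not tested. Of the 20 members with per-array values by rule, 5 changed sign without 1 array: Psmb5 (-0.088 to 0.017), Psmb8 (-0.092 to 0.0036), Psmg1 (-0.21 to 0.070), Psmg3 (-0.11 to 0.015) and Psmg4 (-0.090 to 0.032). None changed sign under the other alternatives.

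The labels number the mice 1 to 3 in both groups. Deviations of same-numbered mice from their group means correlated at 0.08, 0.21 and -0.07 over all genes. Knockout 1 and knockout 2 each correlated best with the control of the same number, while knockout 3 correlated best with control 1 (0.14). Not all 3 numbers matched, and the numbers were not taken as pairs in the main fit. With the replicate block, 17 of all genes and 0 members passed. The 3 mice a group limit all values, and the signal near background limits Psma5, Psma8, Psmb9, Psmb11 and Psmg4.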

Other observations

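Listed peptidases, enzymes that cut peptides, were higher in knockout muscle in 8 of 8 measured genes, without passing the test (limma; 0 of 8 at an adjusted p of 0.05). Their median log2 fold change was 0.20, against -0.0003 over all genes. Neurolysin (Nln) had levels of 7.20, 7.32 and 7.31 in knockout muscle, against 6.91, 6.89 and 7.0 in control muscle (log2 fold change 0.34; limma, adjusted p = 0.354). Tripeptidyl peptidase II (Tpp2), which takes peptides that leave the proteasome, had levels of 9.76, 9.75 and 9.89 in knockout muscle, against 9.56, 9.42 and 9.54 in control muscle (log2 fold change 0.29; limma, adjusted p = 0.463). Bleomycin hydrolase (Blmh) differed by 0.25, Dpp3 by 0.21, Npepps by 0.19, Thop1 by 0.16, and Lap3 and Prep by 0.11 each. In 5 of the 8, all knockout values lay above all control values, against 6.74% of all genes. The list was chosen with earlier results of these data known, so this share is a description only. Without control 1 the median was 0.19 and all 8 stayed higher, unlike the base and lid subunits. No cause was tested.

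The brighter of 2 probe sets shared by Psma4 and another gene, which entered no comparison, had levels of 9.74, 9.64 and 9.71 in knockout muscle, against 10.08, 9.67 and 9.71 in control muscle. Control 1 was again the highest array.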
